A study of Saccharomyces cerevisiae S288C and Saccharomyces paradoxus NRRL Y-17217 and Saccharomyces mikatae IFO 1815 with 8 samples.

Results

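YMR027W and 3 genes close to it on S. cerevisiae chromosome XIII (YMR025W, YMR028W and YMR029C) were followed through 8 RNA-Seq libraries of 4 Saccharomyces species. These 4 genes were taken by name, out of 6599 genes with a single row in the S. cerevisiae annotation. YMR027W was singled out for its level in S. mikatae relative to the other species, so that difference is described here without a test. The 3 neighbours were taken for their position, with earlier results of these data known. The strains were IFO1815 for S. mikatae, Y-17217 for S. paradoxus, S288c wt (FY4xFY5) for S. cerevisiae, and MCYC623 for S. bayanus, whose organism label reads Saccharomyces uvarum CLIB 533. All were diploid, prototrophic strains in exponential growth, without any treatment, and each species is represented by 1 strain. The labels call the medium complete, while the methods of the study give a minimal glucose medium without amino acids. Each species had 2 libraries from independent cultures, and replicate 1 and replicate 2 of every species were prepared on different days, called day 1 and day 2 here. RNA was pooled over each culture, so more cells with a transcript and more transcript per cell cannot be told apart.

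YMR027W encodes a metal-dependent phosphatase of the DUF89 family, which acts on damaged or phosphorylated metabolites. CSI1 (YMR025W) encodes a subunit of the yeast COP9 signalosome, which removes the ubiquitin-like protein Rub1 from cullins. TAP42 (YMR028W) is an essential gene whose product binds the catalytic subunits of type 2A-like phosphatases and links them to TOR signalling, the pathway that couples growth to nutrients. FAR8 (YMR029C) encodes a subunit of the Far complex, which takes part in cell cycle arrest by mating pheromone.

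The order and the relative strands of these genes were the same in the 4 assemblies wherever a row was analysed. In the sacCer2 build of S. cerevisiae the genes spanned chrXIII:323299-330230, with YMR027W at chrXIII:325876-327288 on the plus strand. In the scaffolds of the other assemblies YMR027W ran from 475222 to 476640 on scaffold 33 of S. paradoxus, from 319224 to 320642 on scaffold 67 of S. mikatae, and from 19024 to 20442 on scaffold 65 of S. bayanus. TAP42 followed YMR027W on the same strand after 189 bases in S. mikatae, beside 192 for S. cerevisiae and 198 for S. bayanus. TAP42 and FAR8 were convergent. The row lengths of YMR027W were 1413 bases in S. cerevisiae and 1419 in the other 3 species, whereas the S. mikatae row of FAR8 was 1458 bases long, 92.7% of the 1572 bases in S. cerevisiae. YMR025W was not analysed here in S. mikatae and YMR028W was not analysed here in S. paradoxus, because no single row with that name was at hand.

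**Figure D1:**
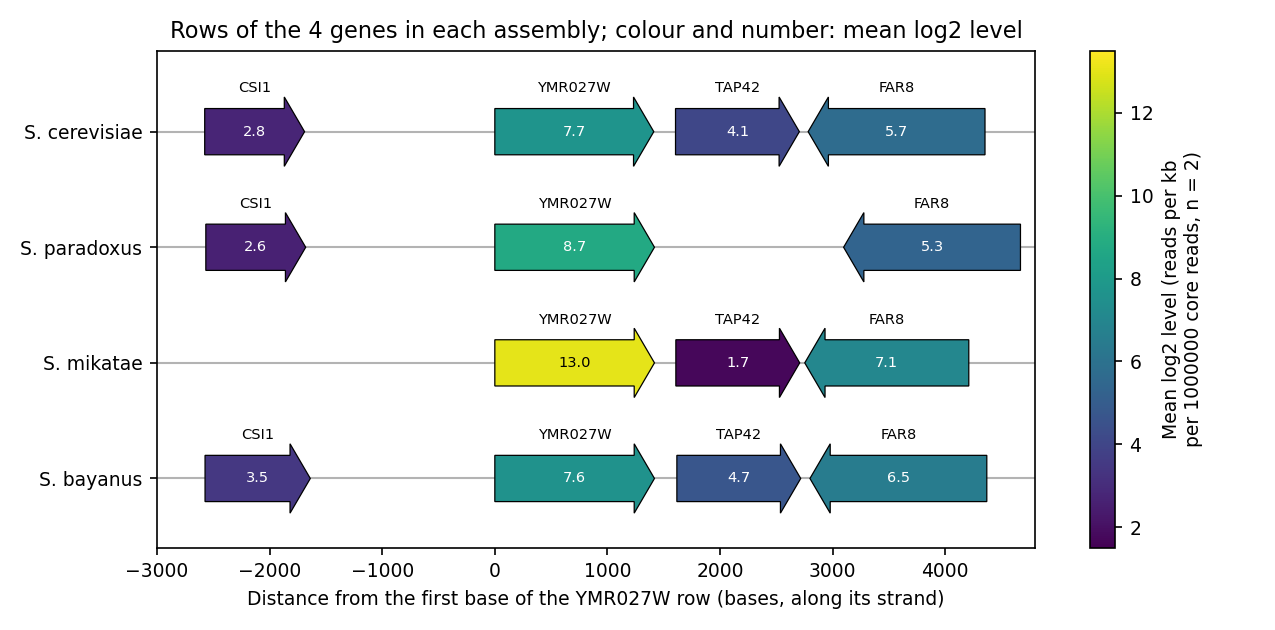
Rows of the 4 genes in each assembly, drawn to scale as arrows along the strand of YMR027W, with distance from its first base on the x axis in bases. Colour and number give the mean log2 level over 2 libraries, in reads per kb per 1000000 core reads, which for YMR027W is 12.99 in S. mikatae and between 7.58 and 8.74 in the other 3 species.

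The stretch before YMR027W is shown because it borders the gene with the large difference. The 300 bases before the YMR027W start codon were read from the R64 build of S. cerevisiae (RefSeq), plus strand, chrXIII:325577-325876, where all 4 genes have the same lengths as in the sacCer2 annotation and start 1 base further along. Only S. cerevisiae sequence was used, so the letters are not those of the species in which the level was high. Capitals mark the matches to the motifs searched.
YMR027W upstream: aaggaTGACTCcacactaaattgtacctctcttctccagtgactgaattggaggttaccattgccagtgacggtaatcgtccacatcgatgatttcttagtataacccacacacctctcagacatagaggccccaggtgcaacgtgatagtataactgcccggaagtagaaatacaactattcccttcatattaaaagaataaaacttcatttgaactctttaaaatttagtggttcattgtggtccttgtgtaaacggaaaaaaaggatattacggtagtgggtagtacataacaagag
Each motif was searched on both strands. TGACTC, the core of the Gcn4 site of amino acid biosynthesis genes, was found once, 295 to 290 bases before the YMR027W start codon. It occurred in 7.73% of the 6026 upstream stretches of this length in the genome. TATAAA, the sequence of a core promoter box held by 48.4% of the stretches, and AGGGG, the stress response element held by 22.2%, had no match in these letters.

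Library depth was 4986745 to 13470636 uniquely aligned reads on annotated genes. Comparisons were made on core genes, chosen after the rules of the study as genes with 1 row in each species, a row length from 90% to 110% of that in S. cerevisiae, and at least 90% of reads aligned to a single place. The further rule of the study that the open reading frame be complete in the draft assembly was not applied here. There were 2739 core genes with 1840377 to 5588566 reads per library, and 2707 of them had at least 10 reads in at least 2 libraries and were tested. YMR027W and FAR8 were core genes that passed this filter. CSI1 and TAP42 were tested in fits of the 3 species that had a row. All reads of the members aligned to a single place, except in S. bayanus FAR8, where 99.5% and 99.7% did. A level below is the number of unique reads per kb of the row and per 1000000 core reads, after TMM scaling, which evens out differences in library composition.

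YMR027W was much higher in both S. mikatae libraries than in the other 6. It had 56571 and 37277 unique reads in S. mikatae replicates 1 and 2. The S. paradoxus libraries held 1389 and 2170 of its reads, the S. bayanus libraries 577 and 927, and the S. cerevisiae libraries 447 and 2027. As levels these were 10380 and 6342 (S. mikatae), 383.5 and 475.7 (S. paradoxus), 161.6 and 268.4 (S. cerevisiae), and 159.1 and 230.2 (S. bayanus). The lowest S. mikatae level lay far above the highest level of any other species. On the log2 scale the mean level was 12.99 ± 0.50 (SD, n = 2) in S. mikatae, 8.74 ± 0.22 in S. paradoxus, 7.70 ± 0.52 in S. cerevisiae and 7.58 ± 0.38 in S. bayanus.

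**Figure D2:**
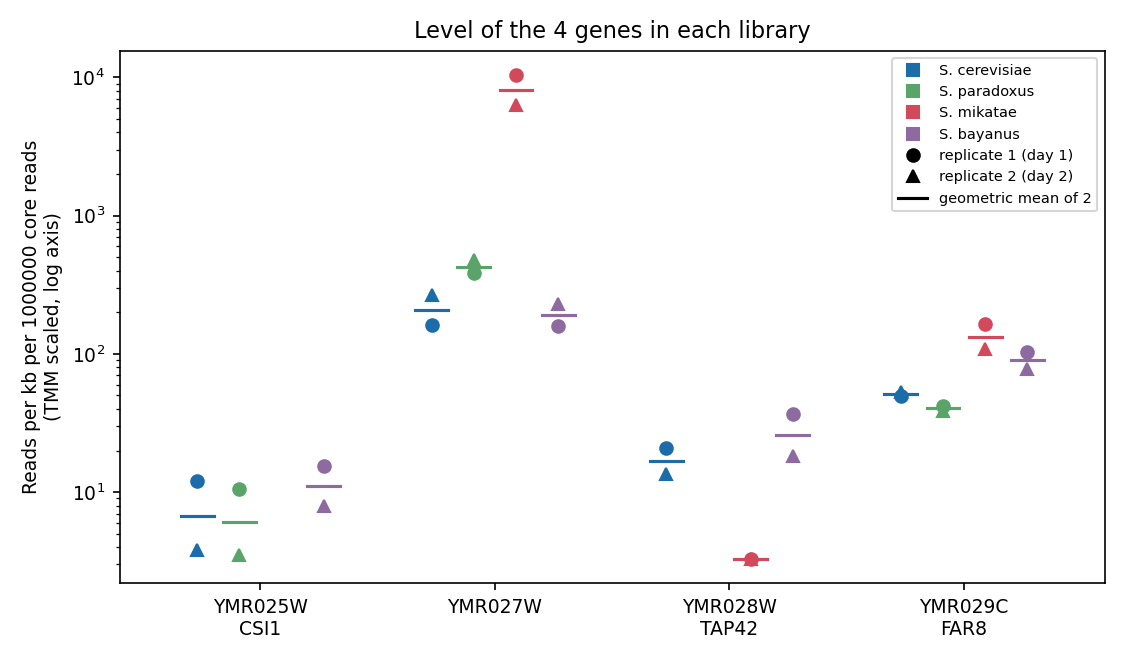
Level of each of the 4 genes in each library, in reads per kb per 1000000 core reads after TMM scaling, on a log axis. Colours are species, circles and triangles are replicates 1 and 2, and horizontal lines are geometric means of 2 libraries. YMR027W in S. mikatae lies at 10380 and 6342, and TAP42 in S. mikatae lies at 3.31 and 3.29, below its 4 other libraries.

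YMR027W was among the core genes with the most reads per kb in S. mikatae. It took 1.51% and 0.927% of the core reads of the S. mikatae libraries and ranked 7 and 12 among the 2739 core genes by reads per kb. In the other 6 libraries it ranked between 310 and 683. Compared on the same day, the S. mikatae level was 64.2-fold that of S. cerevisiae on day 1 and 23.6-fold on day 2. Against S. paradoxus the same-day folds were 27.1 and 13.3, and against S. bayanus they were 65.2 and 27.6. The fold was thus smaller on day 2 against every species, with each day of the same direction. In the edgeR fit with species and day as terms, the log2 difference of S. mikatae from the mean of the other 3 species was 5.04 (SE 0.34), a 33.0-fold difference and number 2 from the top among the 2707 genes. Taken by day, this log2 difference was 5.60 on day 1 and 4.36 on day 2 (SD 0.87). The SE above comes from the fit, which shares information on spread over genes, and is not the spread between days. In this contrast 25.1% of all genes tested passed the adjusted threshold of 0.05 in either direction, 14.7% as higher and 10.4% as lower in S. mikatae.

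**Figure D3:**
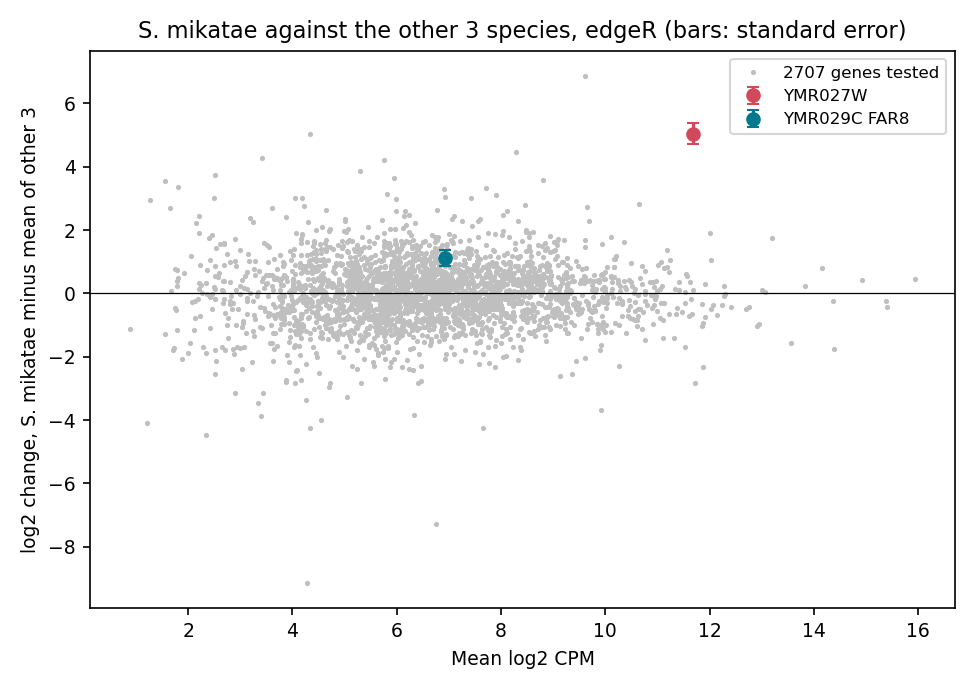
The log2 change of S. mikatae against the mean of the other 3 species (y axis) by mean log2 CPM (x axis, counts scaled to 1000000 reads) for the 2707 genes tested, with YMR027W and FAR8 in colour and their standard errors as bars. YMR027W stands at 5.04, among genes of high mean abundance, a mean that includes the S. mikatae libraries for which it was chosen. FAR8 at 1.12 lies within the cloud of all genes.

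The same species difference was next read in the neighbours, to set the level of YMR027W beside the genes around it. Between S. mikatae and other species FAR8 rose and TAP42 fell by edgeR's quasi-likelihood test with Benjamini-Hochberg adjustment. Neither came near the size of the YMR027W difference, for which that gene had been chosen.

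FAR8 had levels of 163 and 108.6 in S. mikatae. Next came S. bayanus with 103.8 and 77.57, then S. cerevisiae with 49.73 and 52.61, and S. paradoxus with 41.87 and 38.79. The S. mikatae libraries lay above all others, with the first S. bayanus library close below. FAR8 rose by 1.12 on the log2 scale (SE 0.27, 2.17-fold) in S. mikatae against the other 3 species, with an adjusted p of 0.0086 by edgeR, in a contrast where 14.7% of all genes were called higher. Its difference from S. bayanus alone was 1.38-fold (log2 SE 0.34), against 2.41-fold from S. cerevisiae and 3.08-fold from S. paradoxus. The call was lost without S. mikatae replicate 1 (log2 0.90, adjusted p 0.16) and without S. mikatae replicate 2 (log2 1.33, adjusted p 0.055), fits in which the remaining S. mikatae library was assumed to vary like the other species. FAR8 was also not called by the chi-square and lineage rule of the study, rebuilt here from its methods. This rule asks for a difference from each of the 3 species and was not met against S. bayanus.

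TAP42, which follows YMR027W on the same strand, was low in S. mikatae. It had 14 and 15 reads there, with exact Poisson 95% intervals of 7.65 to 23.5 and 8.4 to 24.7 reads. The S. bayanus libraries held 103 and 57 reads and the S. cerevisiae libraries 45 and 80. As levels these were 3.31 and 3.29 (S. mikatae), 36.6 and 18.24 (S. bayanus), and 20.88 and 13.6 (S. cerevisiae). Such intervals cover counting error only and leave out differences between cultures and between library preparations. They may be too narrow even for counting error, since reads of amplified fragments are not independent molecules. In the fit of these 3 species TAP42 fell by 2.63 on the log2 scale in S. mikatae (SE 0.53, 6.20-fold lower), with an adjusted p of 0.0081 by edgeR, where 7.85% of the 2904 genes tested were called lower. The call was lost without S. mikatae replicate 1 (log2 -2.24, adjusted p 0.09) and without S. mikatae replicate 2 (log2 -3.04, adjusted p 0.17), with the same direction in both. Without S. mikatae replicate 2 no gene of this fit was called, against 537 with all 6 libraries, and without S. mikatae replicate 1 there were 203.

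Ratios within a library do not depend on how the libraries are scaled. YMR027W over FAR8, per kb, was 63.7 and 58.4 in S. mikatae and between 1.53 and 12.3 elsewhere. YMR027W over TAP42 was 3135 and 1928 in S. mikatae and between 4.35 and 19.7 in S. cerevisiae and S. bayanus. YMR027W over CSI1 was between 10.3 and 136 in the 3 species measured. In all 8 libraries the level of YMR027W was the highest of the members measured, and the S. mikatae ratios stood outside the range of the others for both neighbours measured there. Since YMR027W was chosen for its S. mikatae level, these ratios are a description.

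**Figure D4:**
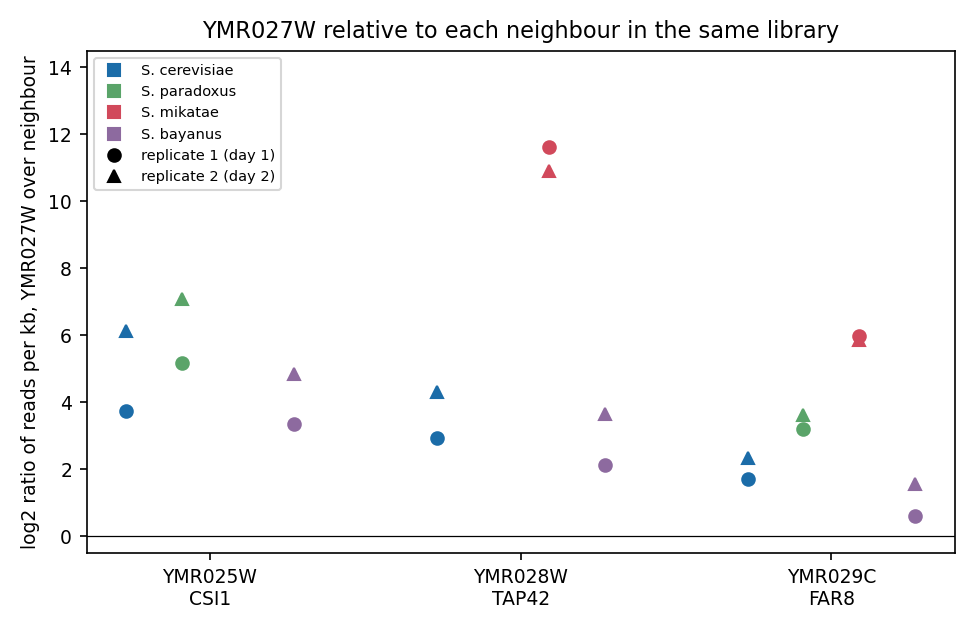
The log2 ratio of YMR027W to each neighbour in the same library, from unique reads per kb, with species as colours and replicates 1 and 2 as circles and triangles. Both S. mikatae libraries lie above the other libraries for TAP42 and FAR8.

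Reads on the other strand were few. The library protocol keeps strand, and the annotations of S. paradoxus, S. mikatae and S. bayanus hold predicted frames that lie over the members on the opposite strand. These frames had between 0 and 6 reads each, counted over the whole frame. The S. paradoxus frame that reached YMR027W had 0 reads in replicate 1 and 1 in replicate 2. Of its 309 bases, 77 lay over the gene. The S. bayanus frame lay over YMR027W with all its 567 bases and had 0 reads. No such frame lay over YMR027W in S. mikatae. Over all core genes, frames lying inside them on the opposite strand held between 0.733% and 1.40% of the reads of both strands. The reads of both strands were those of the frames plus the sense reads of the genes, scaled to the length of the frames.

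Differences among S. cerevisiae, S. paradoxus and S. bayanus were tested to see how the 4 genes varied apart from S. mikatae. Of the 3 members tested, FAR8 was called, in a comparison where 43.6% of the 2707 genes were. FAR8 was highest in S. bayanus, 2.23-fold above S. paradoxus, where it was lowest (adjusted p 0.035 over the 3 species by edgeR). Both S. bayanus libraries lay above the 4 libraries of S. cerevisiae and S. paradoxus. This call was lost without the replicate block (adjusted p 0.071), without S. paradoxus replicate 1 or 2 (0.17 and 0.13) and without S. bayanus replicate 1 or 2 (0.17 and 0.09).

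YMR027W was highest in S. paradoxus among these 3 species, 2.03-fold above S. cerevisiae and 2.22-fold above S. bayanus. On day 1 the S. paradoxus level was 2.37-fold that of S. cerevisiae and on day 2 it was 1.77-fold. The adjusted p over the 3 species was 0.069 by edgeR and 0.023 by DESeq2, which called 49.3% of the 2707 genes, so the difference passed in one tool and not in the other. It also passed by edgeR without S. mikatae replicate 1 (adjusted p 0.049). S. bayanus and S. cerevisiae, next to each other in the order of levels, differed by a log2 change of -0.13 (SE 0.44), less than the spread between replicates.

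CSI1 had the lowest level of the members measured in each library of its 3 species. Its reads numbered 37 and 21 (S. bayanus), 24 and 10 (S. paradoxus), and 21 and 18 (S. cerevisiae). The widest difference between species in the fit of these 3 was 1.85-fold, with an adjusted p of 0.35 by edgeR, where 39% of the 3358 genes tested were called.

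Between the days of preparation none of the 4 members was called by edgeR or by DESeq2. In the fit of 4 species, which holds YMR027W and FAR8, 0.369% of the 2707 genes were called by edgeR and 8.98% by DESeq2, and 21.6% had an unadjusted p under 0.05 by edgeR. In the fit without S. mikatae, which holds CSI1, these shares of the 3358 genes were 0%, 5.63% and 19.2%. In the fit without S. paradoxus, which holds TAP42, they were 0%, 2.72% and 14.9% of 2904 genes. At an unadjusted p under 0.05, 1 of the 4 members passed by edgeR. This was CSI1, whose level was higher on day 1 than on day 2 by 3.19-fold (S. cerevisiae), 3.02-fold (S. paradoxus) and 1.96-fold (S. bayanus), a log2 change of -1.35 (SE 0.46, adjusted p 0.16 by edgeR). YMR027W had a fitted log2 change of 0.22 from day 1 to day 2 (SE 0.31, adjusted p 0.73 by edgeR).

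The flanking genes on either side were read as a description. YMR027W was chosen for this contrast and ranked number 2 among the 2707 genes, so a smaller rise in these genes was near certain. Of the 10 open reading frames on each side of the locus in the S. cerevisiae annotation, 7 were core genes that passed the filter. Of these 7, 1 was called higher and 1 lower in S. mikatae, with a median log2 difference of -0.0039, beside 0.0084 over all genes tested, of which 14.7% were called higher and 10.4% lower. RCH1, a plasma membrane protein that limits calcium uptake, was higher by 2.65-fold (log2 1.40, SE 0.42, adjusted p 0.026 by edgeR). It had 131 and 404 reads in S. mikatae replicates 1 and 2, which held 3841409 and 4142485 core reads after TMM scaling. The other libraries had 37 to 234 reads of RCH1. The 234 lay in S. cerevisiae replicate 2, with 5344269 such core reads. Relative to these core reads, S. mikatae replicate 1 lay below that library, so the rise rested mainly on S. mikatae replicate 2. PEX9, an import receptor of peroxisomes, was lower by 3.87 on the log2 scale (SE 0.84, adjusted p 0.0053 by edgeR). It had 0 and 4 reads in S. mikatae, where a count of 0 allows up to 3, against 89 and 84 (S. bayanus), 17 and 18 (S. cerevisiae), and 8 and 8 (S. paradoxus). The 2 nearest flanking core genes, MRPL3 of the mitochondrial ribosome on one side and HOF1 of cytokinesis on the other, had log2 differences of -0.68 (SE 0.30) and -0.0039 (SE 0.45), neither of them called.

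**Figure D5:**
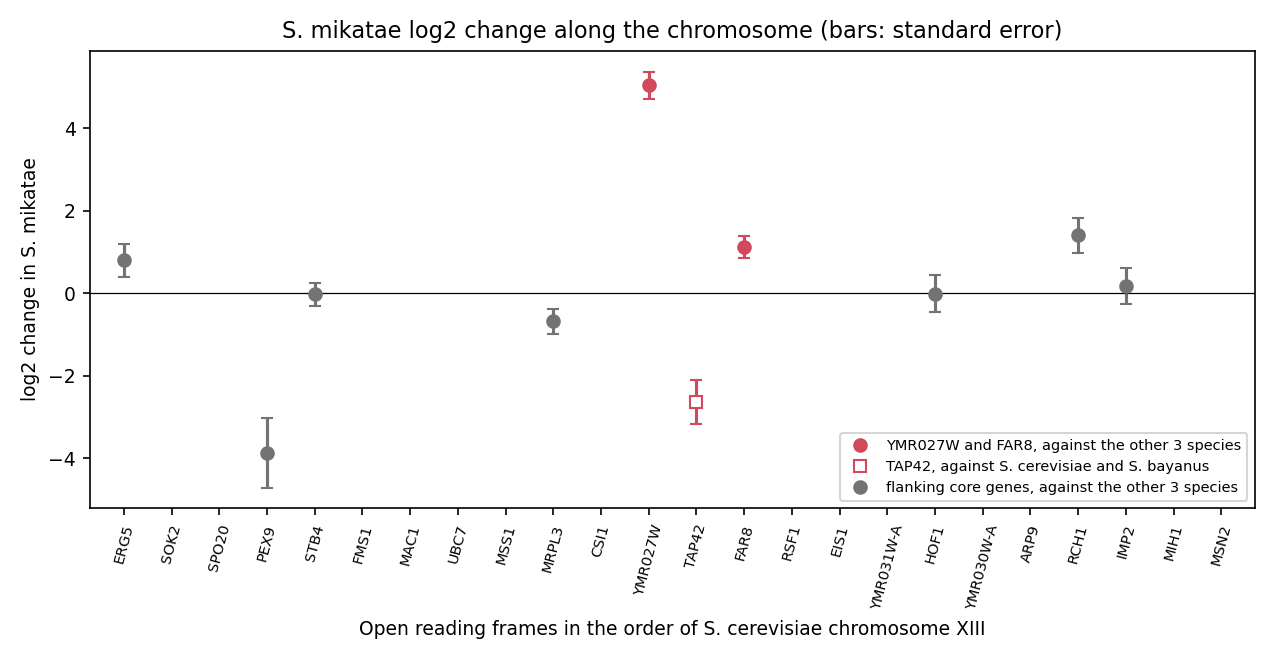
The log2 change in S. mikatae along the open reading frames reported here, in the order of S. cerevisiae chromosome XIII, with standard errors as bars and names without a point not tested. YMR027W stands at 5.04, the 7 flanking genes tested lie between -3.87 and 1.40, and TAP42 (open square) is set against S. cerevisiae and S. bayanus only.

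The partners of the neighbours were read from lists of their pathways, in the contrast of S. mikatae with the other 3 species. Of 15 genes of the COP9 signalosome and Rub1 conjugation, a list that includes CSI1 itself, 8 were tested, 1 rose and 1 fell. CSI1 was not one of the 8. RRI2, a subunit of the signalosome, rose 3.14-fold (adjusted p 0.0016 by edgeR), with 650 and 387 reads in S. mikatae. RRI1, its catalytic subunit, fell by 1.70 on the log2 scale (adjusted p 0.026), with 29 and 14 reads in S. mikatae. The median of the 8 was 0.07 on the log2 scale, beside 0.0084 over all genes, where 14.7% were called higher and 10.4% lower.

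The list of type 2A-like phosphatases and TOR complex 1 held 23 genes, including TAP42 itself, which was not tested in this contrast. Of these, 12 were tested, 1 rose and 3 fell, with a median log2 difference of 0.13. TCO89, a subunit of TOR complex 1, fell by 2.33 on the log2 scale (5.02-fold lower, adjusted p 0.0027 by edgeR). CDC55, a regulatory subunit of phosphatase 2A, was 2.04-fold lower (adjusted p 0.047) and SAP185, a partner of the phosphatase Sit4, was 2.24-fold lower (adjusted p 0.015). SAP4, another partner of Sit4, rose 2.89-fold (adjusted p 0.0039). Over all genes tested 25.1% were called, in both directions. Of 6 genes of the Far complex 2 were tested, and FAR8 itself was the 1 called.

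The core genes whose pattern over the 8 libraries was most like that of YMR027W were PIR5, TOS8, MGR2, PTH4 and THI73, by the smallest root mean square difference of centred log2 CPM. PIR5, of a family of cell wall proteins, was nearest with a difference of 0.89 on the log2 scale, and it had 511 and 952 reads in S. mikatae and 9 to 71 in the other 6 libraries. TOS8, a homeodomain transcription factor, followed at 1.12, MGR2, of the mitochondrial import channel, at 1.15, PTH4 at 1.16 and THI73, a membrane transporter, at 1.20. Their own fitted differences in S. mikatae ran from 6.09-fold for MGR2 to 18.4-fold for PIR5, all under that of YMR027W. As these genes were picked by likeness over the same libraries, the values are a description.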

How the data were processed

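Strand-specific, ribosome-depleted RNA was sequenced on the SOLiD platform. The authors aligned reads with MOSAIK, allowing 2 mismatches per read, to sacCer2 for S. cerevisiae and to scaffolds built on a published annotation for the other 3 species. They deposited read counts per annotated row, as uniquely aligned and as all aligned reads. These deposited counts are raw and not normalized. S. cerevisiae coordinates, given from 0 in the sheets, were raised by 1. A few lines of each sheet were not used here.

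Unique reads were tested with edgeR 4.0.16 in R 4.3.3 (quasi-likelihood, TMM, species and day as terms, Benjamini-Hochberg over all genes tested, threshold 0.05), on core genes with at least 10 reads in at least 2 libraries. DESeq2 1.42.0 was an alternative, and the procedure was tested on simulated data. The fits of 3 species for CSI1 and TAP42 were chosen after seeing the data. Same-day libraries form a block, since the notes of the authors give the replicate number as the day of preparation. The day 2 minus day 1 changes of the species correlated between 0.17 and 0.49 over 2707 genes.

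The members and lists were chosen with earlier results of these data known. Of the members and lists, 1 gene and 1 list are not reported here. Genes named are the other members, list members and flanking genes that passed in the S. mikatae contrast, and the 5 core genes of most like pattern (prior count 1). The 2 flanking genes nearest to the members were named after their values were seen. The 3 lists reported held 44 genes. Of the 30 alternatives, 28 were planned and 2 added.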

Additional observations from a re-analysis of the deposited data

Results flagged for a closer look

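The change from day 1 to day 2 went in opposite directions in different species for YMR027W and FAR8, a difference that was not tested. The log2 level of YMR027W changed by -0.71 in S. mikatae, and by 0.73 (S. cerevisiae), 0.53 (S. bayanus) and 0.31 (S. paradoxus) in the others. FAR8 changed by 0.08 (S. cerevisiae), -0.11 (S. paradoxus), -0.42 (S. bayanus) and -0.59 (S. mikatae). Its only rise, in S. cerevisiae, was small beside counting error. The 153 reads of replicate 1 there had an exact Poisson 95% interval of 130 to 179. Each of these changes rests on 1 library per day.

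The predicted frame MIK16517, on the strand opposite to FAR8, was outside the comparisons. It had more reads than a count of 0 allows in both S. mikatae libraries, 6 in replicate 1 and 6 in replicate 2. Over all core genes, opposite frames held 0.733% and 1.32% of the reads of both strands in these libraries, with sense reads scaled to the length of the frames. The frame was not tested against that background.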

How the results depend on the processing

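The log2 difference of YMR027W in S. mikatae stayed between 4.36 and 5.60 over its 16 alternatives. In the S. mikatae contrast FAR8 and TAP42 lost their calls without either S. mikatae library. Both kept them in the other edgeR and DESeq2 fits. The chi-square and lineage rule of the study, rebuilt here from its methods over 2739 core genes, did not call FAR8. This rebuild also asked for the same direction on both days, and its counts are not those the study printed. The number of genes called in the S. mikatae contrast was 679, and it was 413 without the replicate block, 1027 with no limit on length or unique share, 125 by the chi-square and lineage rule of the study, and 186 to 720 leaving out one library. Among the other 3 species, 1179 genes were called, 746 without the replicate block and 609 to 1098 leaving out one library. Between days, 10 genes were called, 50 with library totals, 21 with no filter, 243 by DESeq2, 0 without the species term (no replicate block), 78 with no limit on length or unique share, and 0 to 20 leaving out one library. In the fit of S. cerevisiae, S. paradoxus and S. bayanus, 1309 were called, 817 without the replicate block and 241 to 1734 leaving out one library. In the fit of S. cerevisiae, S. mikatae and S. bayanus, 537 were called, 940 with no limit on length or unique share and 0 to 695 leaving out one library. The replicate block changed no other call of a member than that of FAR8 among the 3 species. A lone library was assumed to vary like the other groups, and the causes were not tested. Depth limits CSI1 and TAP42, with 10 to 103 reads.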
